A study of Homo sapiens with 16 samples.

Results

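The G2 and mitosis genes are 54 genes that cells use to enter and complete division, taken from a list of G2/M genes by matching their names to the table of raw counts, and all 54 were found among its 58721 genes. They were followed in 16 libraries of 3′ messenger RNA from RT112 and SCaBER, a pair of human bladder cancer cell lines. RT112 is a Luminal line (LumP) and SCaBER a Basal line (Ba/Sq), and they were grown in RPMI and in DMEM respectively, both with serum, so that line and medium cannot be told apart. Each line received with a lipid reagent one of 4 siRNAs, whose amount is 10 nM in the labels and 10 ng in the methods: siFOXA1.1 or siFOXA1.2, which target FOXA1, a forkhead transcription factor of Luminal urothelium, or siControl.1 or siControl.2. Every siRNA had 2 libraries per line, and the labels number them as experiment batch replicates 1 and 2. The labels name no treatment other than the siRNAs. Each group is 1 established line, and nothing says whether its libraries came from separate cultures, so that p-values measure the spread between these libraries, which may be technical.

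Cells that leave G2 switch on the kinase CDK1 with its cyclin B partners, condense their chromosomes, attach them to the spindle through kinetochores, and hold anaphase back by a checkpoint until all are attached. The anaphase-promoting complex then marks cyclins and securin for destruction, and a contractile ring divides the cell at cytokinesis. Many of these genes are transcribed together late in the cycle. Their promoters often carry a CHR element (cell cycle genes homology region), read by the MuvB complex with B-MYB and FOXM1, and CCAAT boxes read by NF-Y. Because the genes are high in G2 and M cells, bulk RNA cannot tell fewer dividing cells from less RNA in each dividing cell, and this holds for every value below.

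The promoters of the 4 members with the most negative mean change under siFOXA1.1 over both lines are shown first, from RefSeq on GRCh38.p14. Each window runs from 250 bases before the annotated start to 50 bases after it and is written 5′ to 3′ on the strand of the gene. Capitals mark matches to TTTGAA (the CHR element) and to CCAAT, on either strand, so that TTCAAA and ATTGG also stand in capitals. MKI67 (the Ki-67 protein that coats mitotic chromosomes) has its window at chr10:128126374-128126673 on the minus strand, GTSE1 (a microtubule-binding protein of G2 and S phase) at chr22:46296620-46296919 on the plus strand, CDCA3 (a trigger of mitotic entry) at chr12:6851237-6851536 on the minus strand and HMMR (a spindle protein) at chr5:163460382-163460681 on the plus strand.
MKI67: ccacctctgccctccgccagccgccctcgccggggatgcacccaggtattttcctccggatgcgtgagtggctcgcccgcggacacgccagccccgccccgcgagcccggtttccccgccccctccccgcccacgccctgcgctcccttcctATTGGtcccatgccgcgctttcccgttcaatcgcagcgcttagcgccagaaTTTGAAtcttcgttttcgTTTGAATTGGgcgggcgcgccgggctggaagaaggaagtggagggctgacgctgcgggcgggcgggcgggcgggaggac
GTSE1: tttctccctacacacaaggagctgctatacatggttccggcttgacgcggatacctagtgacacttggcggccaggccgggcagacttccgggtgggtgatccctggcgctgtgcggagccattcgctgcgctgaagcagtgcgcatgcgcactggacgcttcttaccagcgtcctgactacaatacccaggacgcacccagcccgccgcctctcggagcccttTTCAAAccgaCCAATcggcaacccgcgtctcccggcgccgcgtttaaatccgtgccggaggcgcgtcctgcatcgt
CDCA3: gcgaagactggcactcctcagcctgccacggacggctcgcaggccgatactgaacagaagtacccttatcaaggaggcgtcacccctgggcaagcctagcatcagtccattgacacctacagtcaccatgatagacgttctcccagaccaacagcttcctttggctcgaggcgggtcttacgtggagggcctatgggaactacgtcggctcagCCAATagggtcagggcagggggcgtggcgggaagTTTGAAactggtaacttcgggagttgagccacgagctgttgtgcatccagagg
HMMR: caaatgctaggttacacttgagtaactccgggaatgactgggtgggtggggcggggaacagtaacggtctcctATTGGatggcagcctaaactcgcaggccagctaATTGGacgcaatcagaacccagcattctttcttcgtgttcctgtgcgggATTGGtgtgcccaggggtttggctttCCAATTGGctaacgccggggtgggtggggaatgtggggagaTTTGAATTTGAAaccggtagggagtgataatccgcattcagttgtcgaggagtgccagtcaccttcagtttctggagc

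In these windows the CHR match of GTSE1 began 26 bases before the start and its CCAAT match 16 bases before it. In CDCA3 the CHR match began 3 bases before the start and the CCAAT match 37 bases before it. MKI67 held CHR matches 47 and 29 bases and CCAAT matches 98 and 24 bases before the start, the matches at 29 and 24 sharing a letter. HMMR held CHR matches 28 and 22 bases before the start and 5 CCAAT matches between 177 and 66 bases before it, of which those at 69 and 66 share letters. Over the list, 45 members had a promoter entry, with 58 windows in all. Of these windows 62.07% held TTTGAA, against 15.16% of all 35116 promoter windows of the same length, and 65.52% held CCAAT, against 34.61%. The variant TTCGAA stood in 5.172% of the members' windows and in 1.447% of all windows. Both a CHR match or its variant and a CCAAT match stood in 51.72% of the members' windows, against 6.376% of all windows, and at least 2 CCAAT matches in 44.83%, against 10.75%. The forkhead letters TGTTTAC stood in 1.724% of the members' windows, those of 1 member, and in 3.423% of all windows. BIRC5, AURKA, TTK, ANP32E, TPX2, PIMREG, CDCA2, HMGB2 and UBE2C had no entry.

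FOXA1 (chr14:37589552-37595249 on GRCh38.p14) was checked first. In RT112 it stood at 34.7, 29.6, 17.6 and 26.9 CPM (counts scaled to a common library total, TMM-normalised within each line) in the controls, at 1.38 and 3.52 CPM under siFOXA1.1 and at 9.07 and 15.8 CPM under siFOXA1.2. Control values are given throughout as siControl.1 replicates 1 and 2, then siControl.2 replicates 1 and 2. All 4 siFOXA1 libraries lay below all controls, and the means were 9.00% and 45.7% of control. The log2 change was -3.45 ± 0.47 (SE) under siFOXA1.1 (edgeR adjusted p = 1.39e-05) and -1.10 ± 0.39 under siFOXA1.2 (edgeR adjusted p = 0.215), and the knock-down by siFOXA1.1 was deeper than that by siFOXA1.2 by -2.34 ± 0.50 (edgeR adjusted p = 0.00154). In SCaBER FOXA1 had 3, 4, 15 and 9 counts in the controls, 0 and 3 under siFOXA1.1 and 0 and 6 under siFOXA1.2, at or near the floor of 3 counts taken here as the limit of detection, so that a knock-down was not detectable at this depth. siRNA sequence and depth of knock-down cannot be told apart in RT112.

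The libraries held 4528513 to 7604581 counts. The sum of 8 Luminal line markers, of which UPK3A was at 0 throughout and KRT20 and UPK1A in SCaBER, lay at 1215 to 2082 CPM in RT112 against 26.86 to 56.08 CPM in SCaBER. KRT20 was also at 0 in RT112, apart from 0.72 CPM in siFOXA1.2 replicate 1. The sum of 6 Basal line markers, of which DSG3 was at 0 in RT112, lay at 149 to 443.8 CPM in RT112 against 1893 to 3644 CPM in SCaBER. Each line thus had the higher sum for the markers of its label, though not every marker was present. Of 6 leukocyte markers 5 were at 0 in every library, and the sum of 6 fibroblast markers, with COL3A1 and DCN at 0 throughout, was 85.0 to 144.6 CPM in RT112 and 10.2 to 44.5 CPM in SCaBER. Mitochondrial genes took 25.7% and 28.2% of the counts under siFOXA1.1 in RT112, against 18.0% to 21.2% in the other RT112 libraries, and 10.3% to 12.1% in all SCaBER libraries. Under siFOXA1.1 in RT112 the Luminal sum was 1215 to 1411 CPM, against 1867 to 2082 CPM in the controls and 1227 to 1228 CPM under siFOXA1.2, and 6 of 6 Luminal markers tested were lower (median log2 change -0.96). These markers include FOXA1 itself, the target of the siRNA (log2 change -3.45), so its fall adds nothing about the other markers. The Basal sum was 274.6 to 436.3 CPM, against 149 to 285.2 CPM in the controls and 369 to 443.8 CPM under siFOXA1.2, with 2 of 4 tested markers (KRT5 and CD44) higher. The other 2, KRT6A and KRT14, had negative changes that were not called, and the median log2 change of the 4 was 0.18. KRT14 read 3.52, 3.19, 2.18 and 3.43 CPM in the controls and 0 and 1.44 CPM under siFOXA1.1. The fibroblast sum, 112 to 114 CPM, lay within that of the controls, but of its 2 tested markers LUM was lower (-0.79) and COL1A1 higher, at 59.02 and 58.5 CPM against 7.13 to 10.8 CPM in the controls (log2 change 2.79 ± 0.29, edgeR adjusted p = 4.2e-07). In SCaBER 1 marker of these lists, the Basal KRT6B, was called under siFOXA1.1. Whether the mitochondrial share or these markers had a part in the changes of the members was not tested.

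Under siFOXA1.1 the G2 and mitosis genes fell in both lines, with a more negative median in RT112 than in SCaBER. In RT112 49 of the 54 members were lower and none higher (edgeR adjusted p under 0.05), against 15.1% lower among the 13462 genes tested, and the median log2 change was -2.21 for the members and -0.02 for all genes. In SCaBER 39 of 54 were lower and none higher, against 4.07% lower among 13407 genes, with a median of -1.17 for the members and 0.01 for all genes. All 54 members had a negative change in each line, between -3.40 and -0.25 in RT112 against -2.32 and -0.09 in SCaBER.

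The summed level of the 54 members shows the same in single libraries. It was 8942, 8604, 10135 and 9745 CPM in the RT112 controls, 3032 and 2553 CPM under siFOXA1.1 and 8787 and 8990.2 CPM under siFOXA1.2. In SCaBER it was 9976, 9799, 10556 and 10751 CPM in the controls, 5698 and 4002 CPM under siFOXA1.1 and 9781 and 9527 CPM under siFOXA1.2. Both siFOXA1.1 libraries thus stood apart below every other library of their line, at 29.9% and 47.2% of the control mean, while siFOXA1.2 stood at 95.0% and 94.0%. The SCaBER siFOXA1.1 libraries differed from each other more than any other pair. Leaving out SCaBER siFOXA1.1 replicate 2, the lower one, took the count in SCaBER from 39 to 32, and leaving out replicate 1 took it to 44. Within experiment batch 1 and batch 2 RT112 had median changes of -1.72 and -2.24, and SCaBER of -0.97 and -1.43.

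**Figure D1:**
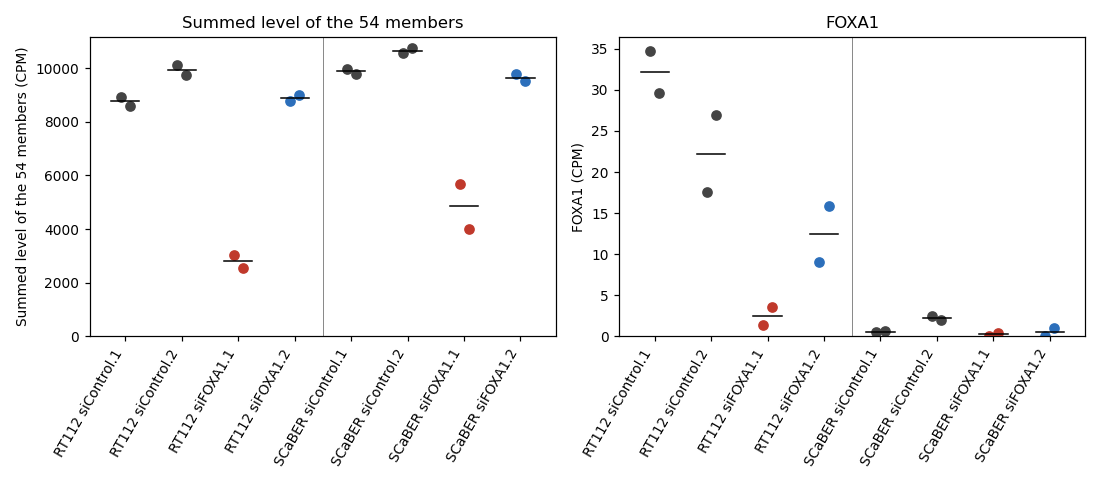
Summed CPM of the 54 members (left) and CPM of FOXA1 (right) in each of the 16 libraries, by cell line and siRNA, with points for libraries and bars for the mean of 2. The siFOXA1.1 libraries are lowest in the sum in both lines, at 2553 and 3032 CPM in RT112 and at 4002 and 5698 CPM in SCaBER, while FOXA1 is above 10 CPM only in RT112.

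Under siFOXA1.2 no member passed the test, in comparisons that share their control libraries with those of siFOXA1.1. None of the 54 members was called in either direction in RT112 (edgeR), where 1.78% of all genes were. An unadjusted edgeR p under 0.05 was reached there by 5 of the 54, a share no larger than that of all genes (1529 of 13462). None was called in SCaBER (edgeR), where 0.0373% of all genes were, and 2 had an unadjusted p under 0.05. The count was also 0 in both lines with DESeq2 and with limma. The median log2 change was -0.08 in RT112 (range -0.66 to 0.75) and -0.09 in SCaBER (range -0.83 to 0.44). The 95% interval of the change lay above a log2 value of -1 for 50 members in RT112 and for 49 in SCaBER. A p above the threshold does not show that siFOXA1.2 left these genes as they were. The members with an unadjusted p under 0.05 were CKS1B, AURKA, KIF20B and ANLN (-0.43 to -0.32) and PSRC1 (0.61) in RT112, and CKS2 (-0.83) and ANLN (-0.40) in SCaBER.

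The siRNAs were also compared directly. Under siFOXA1.1 48 members were lower than under siFOXA1.2 in RT112, against 13.3% of all genes, with a median of -2.03. The other 6 were CKS1B, CKS2, G2E3, CENPA, CTCF and RANGAP1. In SCaBER 30 members were lower, against 2.42% of all genes, with a median of -1.08, and this count fell to 13 without siFOXA1.2 replicate 1 and to 18 without siFOXA1.2 replicate 2. With the siFOXA1 siRNAs pooled against the controls, no member was called in RT112 (edgeR, 0.108% of all genes called, 7 members with an unadjusted p under 0.05) or in SCaBER (edgeR, 0.0084%, 21 members), and the medians were -0.69 and -0.54. The pooled groups hold siRNAs whose values differ, so their spread includes that difference.

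As background, siControl.1 was set against siControl.2. In RT112 1 member was called, ANP32E, against 2.11% of all genes, and the median change was -0.21. ANP32E, a histone chaperone for H2A.Z, stood at 69.8 and 78.6 CPM under siControl.1 and at 126 and 122 CPM under siControl.2 (log2 change -0.74 ± 0.18, edgeR adjusted p = 0.0345). With the experiment batch as a replicate block, 4 members were called in this comparison. Under siControl.1 27 members had both libraries below both libraries of siControl.2, against 21.9% of all genes. In SCaBER no member was called between the controls (edgeR, 0.0671% of all genes, 1 member with an unadjusted p under 0.05), and the median was -0.02.

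Under siFOXA1.1 both libraries lay below all 4 controls for 49 members in RT112, against 23.2% of all genes, and for 47 in SCaBER, against 14.4%. The members that overlapped were CTCF, CKS2, CENPA, GAS2L3 and ANP32E in RT112, and CTCF, JPT1, NEK2, TTK, TUBB4B, RANGAP1 and CENPA in SCaBER. Under siFOXA1.2 both libraries lay below all controls for 7 members in RT112, against 9.98%, and for 14 in SCaBER, against 7.46%.

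**Figure D2:**
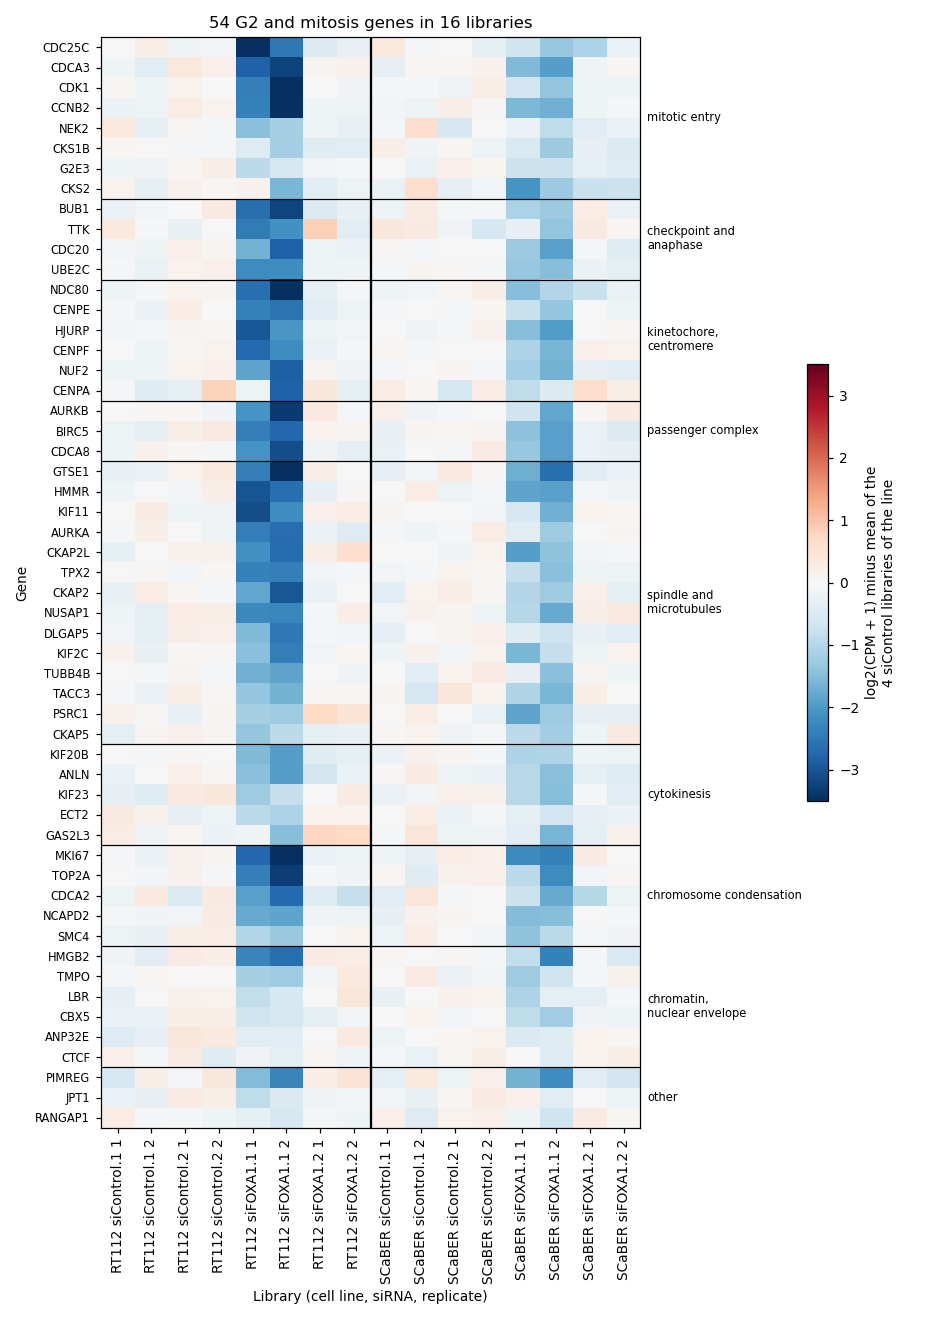
Level of each of the 54 members (rows, by function) in each of the 16 libraries (columns), as log2(CPM + 1) minus the mean of the 4 siControl libraries of the line, in blue where lower and red where higher. The pair of siFOXA1.1 columns is blue in nearly every row in RT112 and paler in SCaBER, and the siFOXA1.2 columns are close to the controls.

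The median change ranged widely between the functions of mitosis. In RT112 the median log2 change was -2.61 for the chromosomal passenger complex (3 of 3 members lower), -2.49 for chromosome condensation (5 of 5), -2.47 for kinetochore and centromere (5 of 6), -2.37 for the spindle checkpoint and anaphase ubiquitination (4 of 4), -2.36 for spindle and microtubules (14 of 14) and -2.15 for mitotic entry (7 of 8). It was -1.03 for cytokinesis (4 of 5) and -0.69 for chromatin and nuclear envelope (4 of 6). The last 3 genes, with other or less settled roles, had a median of -0.69 (3 of 3). In SCaBER the medians were -1.62 for the passenger complex (3 of 3), -1.43 for condensation (4 of 5), -1.33 for checkpoint and anaphase (3 of 4), -1.30 for kinetochore (5 of 6), -1.17 for spindle (12 of 14), -1.07 for cytokinesis (3 of 5), -1.03 for mitotic entry (5 of 8), -0.81 for chromatin (3 of 6) and -0.42 for the other 3 genes (1 of 3). Over 16 alternative settings the passenger complex ranked 1 to 3 in RT112 and 1 to 2 in SCaBER, cytokinesis 7 in every RT112 setting, and chromatin with nuclear envelope 8 to 9 in RT112 and 7 to 9 in SCaBER. The functions hold 3 to 14 members each, and differences between their medians were not tested.

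**Figure D3:**
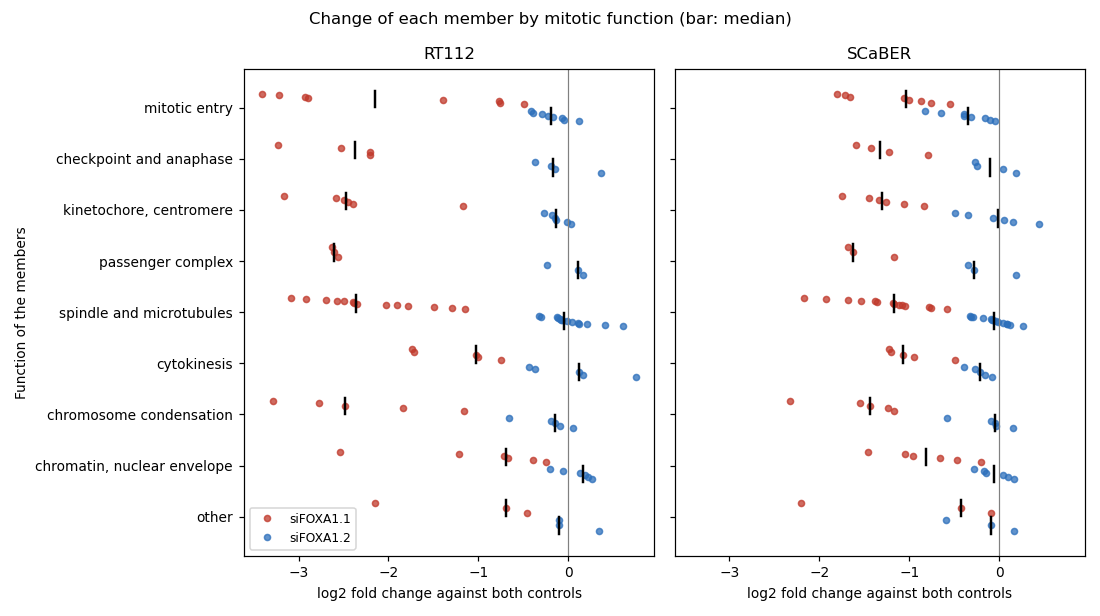
log2 change against both controls of each member (point) under siFOXA1.1 (red) and siFOXA1.2 (blue), by function, in RT112 (left) and SCaBER (right), with a bar at the median. Under siFOXA1.1 in RT112 the 3 passenger complex points lie close to their median of -2.61, those of chromatin and nuclear envelope are spread from -2.54 to -0.25 around a median of -0.69, and the siFOXA1.2 points lie around 0.

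Mitotic entry held both the largest fall and some of the smallest. CDC25C, the phosphatase that activates CDK1, stood in RT112 at 33.0, 38.4, 29.4 and 30.2 CPM in the controls, at 1.22 and 4.96 CPM under siFOXA1.1 and at 22.9 and 26.9 CPM under siFOXA1.2. Its SCaBER values were 30.8, 22.6, 23.5 and 18.4 CPM (controls), 14.0 and 8.84 CPM (siFOXA1.1) and 10.5 and 19.7 CPM (siFOXA1.2). It was 10.6-fold lower in RT112 (log2 change -3.40 ± 0.43, edgeR adjusted p = 5.69e-06), the largest fall of the list there, with no overlap with the controls. In SCaBER both siFOXA1.1 libraries lay below all controls, as did siFOXA1.2 replicate 1, and the change was not called (log2 change -1.06 ± 0.41, edgeR adjusted p = 0.138).

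CDCA3, part of the ubiquitin ligase that removes the CDK1 inhibitor WEE1, read 49.95, 41.7, 71.7 and 62.3 CPM in the RT112 controls, 6.88 and 4.96 CPM under siFOXA1.1 and 58.6 and 61.3 CPM under siFOXA1.2. In SCaBER it read 42.01, 53.2, 53.8 and 56.5 CPM (controls), 16.8 and 12.7 CPM (siFOXA1.1) and 47 and 52.7 CPM (siFOXA1.2). Both siFOXA1.1 libraries lay below all others of each line, with changes of -3.22 ± 0.27 log2 units (edgeR adjusted p = 3.14e-08) in RT112 and -1.80 ± 0.29 log2 units (edgeR adjusted p = 0.00107) in SCaBER. CDK1 itself stood at 206, 181, 219 and 204 CPM in the RT112 controls, at 37.5 and 15.67 CPM under siFOXA1.1 and at 205 and 187 CPM under siFOXA1.2. For SCaBER the CDK1 values were 154, 157, 148 and 187 CPM (controls), 100.2 and 60.9 CPM (siFOXA1.1) and 144 and 145 CPM (siFOXA1.2). CDK1 was 7.60-fold lower in RT112 (log2 change -2.93 ± 0.24, edgeR adjusted p = 2.31e-08) and 2.01-fold lower in SCaBER (log2 change -1.01 ± 0.23, edgeR adjusted p = 0.0129), without overlap in either. CCNB2, a cyclin B that binds CDK1, read 122, 127, 169 and 154 CPM (controls), 26.6 and 11.2 CPM (siFOXA1.1) and 127 and 125 CPM (siFOXA1.2) in RT112. Its SCaBER values were 93.4, 89.5, 119 and 104 CPM (controls), 33.1 and 30.8 CPM (siFOXA1.1) and 90.3 and 97.2 CPM (siFOXA1.2). The falls were -2.90 ± 0.25 log2 units (edgeR adjusted p = 3.93e-08) in RT112 and -1.66 ± 0.22 log2 units (edgeR adjusted p = 0.000297) in SCaBER, and the siFOXA1.1 libraries were again the lowest of each line.

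In RT112 the small CDK-binding subunits CKS1B and CKS2, a close pair, had less negative changes than these members. CKS2 in RT112 read 35.5, 25.8, 36.2 and 34.3 CPM in the controls, 36.7 and 10.1 CPM under siFOXA1.1 and 24.9 and 28.6 CPM under siFOXA1.2. One siFOXA1.1 library was thus just above the highest control and the other far below all of them, and the change was not called (log2 change -0.49 ± 0.36, edgeR adjusted p = 0.336). In SCaBER CKS2 read 35.3, 64.3, 33.7 and 38.8 CPM (controls), 9.27 and 16.5 CPM (siFOXA1.1) and 23.6 and 24.3 CPM (siFOXA1.2), with both siFOXA1.1 libraries below all others and a called fall (log2 change -1.71 ± 0.36, edgeR adjusted p = 0.00793). It was the only member called in SCaBER and not in RT112. CKS1B fell by less than most members in both lines (log2 change -0.77 ± 0.16, edgeR adjusted p = 0.00106 in RT112 and log2 change -0.87 ± 0.22, edgeR adjusted p = 0.0234 in SCaBER). G2E3, a ubiquitin ligase of G2, and NEK2, a centrosome kinase, were lower in RT112 (log2 change -0.76 ± 0.23, edgeR adjusted p = 0.0155 and log2 change -1.39 ± 0.30, edgeR adjusted p = 0.00137) and not called in SCaBER (log2 change -0.76 ± 0.24 and -0.55 ± 0.33). Reads shared by near-identical copies, such as the pseudogenes of small genes like CKS2 and the other beta tubulins of TUBB4B, could be missed or misplaced by the counting. These values are uncertain to that extent.

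In the spindle checkpoint, BUB1, a kinase at unattached kinetochores, stood at 27.5, 29.7, 32.3 and 40.1 CPM in the RT112 controls, at 4.28 and 2.56 CPM under siFOXA1.1 and at 22.7 and 26.9 CPM under siFOXA1.2. SCaBER libraries gave BUB1 values of 63.01, 86.3, 68.6 and 67.0 CPM (controls), 32.1 and 28.9 CPM (siFOXA1.1) and 84.5 and 61.7 CPM (siFOXA1.2). BUB1 was 9.35-fold lower in RT112 (log2 change -3.22 ± 0.36, edgeR adjusted p = 1.25e-06) and 2.33-fold lower in SCaBER (log2 change -1.22 ± 0.26, edgeR adjusted p = 0.00792), with the siFOXA1.1 libraries lowest in each line. TTK, the kinase that starts the checkpoint, read 31.4, 23.5, 20.7 and 24.3 CPM (controls), 3.67 and 4.96 CPM (siFOXA1.1) and 45.1 and 18.9 CPM (siFOXA1.2) in RT112. In SCaBER TTK read 32.3, 30.6, 22.3 and 15.6 CPM (controls), 19.7 and 8.69 CPM (siFOXA1.1) and 30.5 and 25.1 CPM (siFOXA1.2). Its fall was called in RT112 (log2 change -2.52 ± 0.41, edgeR adjusted p = 8.45e-05), whereas in SCaBER siFOXA1.1 replicate 1 lay within the controls and the change was not called (log2 change -0.79 ± 0.38, edgeR adjusted p = 0.241).

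CDC20, which activates the anaphase-promoting complex once the checkpoint is satisfied, read 56.9, 53.3, 68.2 and 64.3 CPM (controls), 18.3 and 7.68 CPM (siFOXA1.1) and 54.1 and 51.2 CPM (siFOXA1.2) in RT112. Its SCaBER levels were 84.9, 80.4, 83.1 and 82.1 CPM (controls), 33.5 and 21.4 CPM (siFOXA1.1) and 78.9 and 60.9 CPM (siFOXA1.2). UBE2C, the ubiquitin-conjugating enzyme of the same complex, read 203, 179, 227 and 236 CPM (controls), 45.3 and 45.7 CPM (siFOXA1.1) and 189 and 189 CPM (siFOXA1.2) in RT112. For both genes the siFOXA1.1 libraries did not overlap any other library of the line. UBE2C in SCaBER read 114, 126, 121 and 114 CPM (controls), 47.1 and 41.3 CPM (siFOXA1.1) and 103 and 94.5 CPM (siFOXA1.2). CDC20 fell by nearly the same in RT112 (log2 change -2.21 ± 0.29, edgeR adjusted p = 7.65e-06) as UBE2C did (log2 change -2.21 ± 0.14, edgeR adjusted p = 9.93e-10), and in SCaBER the changes were -1.59 ± 0.26 and -1.43 ± 0.21 (edgeR adjusted p = 0.00147 and 0.000678).

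At the kinetochore, NDC80, the microtubule-binding subunit of its outer layer, stood at 85.2, 89.4, 103 and 101 CPM in the RT112 controls, at 14.4 and 6.56 CPM under siFOXA1.1 and at 74.6 and 92.0 CPM under siFOXA1.2. In SCaBER NDC80 stood at 56.2, 58.5, 65.8 and 72.5 CPM (controls), 21.9 and 30.6 CPM (siFOXA1.1) and 36.5 and 53.3 CPM (siFOXA1.2). The fall was 8.98-fold in RT112 (log2 change -3.17 ± 0.26, edgeR adjusted p = 2.93e-08) and 2.39-fold in SCaBER (log2 change -1.26 ± 0.27, edgeR adjusted p = 0.0102), and in SCaBER both siFOXA1.2 libraries also lay below the controls. NUF2, its partner in the same complex, read 39.6, 40.2, 49.0 and 50.7 CPM (controls), 11.6 and 5.28 CPM (siFOXA1.1) and 47.4 and 41.2 CPM (siFOXA1.2) in RT112. SCaBER values of NUF2 were 57.3, 60.7, 63.6 and 57.2 CPM (controls), 25.8 and 18.2 CPM (siFOXA1.1) and 48.7 and 45.5 CPM (siFOXA1.2). NUF2 was lower in both lines (log2 change -2.39 ± 0.31, edgeR adjusted p = 6.34e-06 in RT112 and log2 change -1.44 ± 0.27, edgeR adjusted p = 0.00338 in SCaBER) with siFOXA1.1 lowest throughout.

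CENPE, a kinetochore motor, read 62.7, 57.2, 79.7 and 66.0 CPM (controls), 11.9 and 10.1 CPM (siFOXA1.1) and 51.2 and 58.1 CPM (siFOXA1.2) in RT112. In SCaBER CENPE read 111, 116, 111 and 119.8 CPM (controls), 66.5 and 43.9 CPM (siFOXA1.1) and 116 and 102 CPM (siFOXA1.2). It was 6.00-fold lower in RT112 (log2 change -2.58 ± 0.24, edgeR adjusted p = 1.03e-07) and 2.08-fold lower in SCaBER (log2 change -1.06 ± 0.23, edgeR adjusted p = 0.00899), without overlap. CENPF, a large protein of the outer kinetochore, read 408, 359, 416 and 436 CPM (controls), 60.1 and 88.3 CPM (siFOXA1.1) and 344 and 392.5 CPM (siFOXA1.2) in RT112. Its values in SCaBER were 522, 485, 499 and 493 CPM (controls), 235 and 160.5 CPM (siFOXA1.1) and 561 and 548 CPM (siFOXA1.2). CENPF fell in both (log2 change -2.45 ± 0.15, edgeR adjusted p = 5.42e-10 in RT112 and log2 change -1.34 ± 0.19, edgeR adjusted p = 0.000455 in SCaBER) and the siFOXA1.2 libraries in SCaBER stood above all controls.

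HJURP, the chaperone that loads CENPA at centromeres, read 86.9, 89.5, 98.9 and 96.1 CPM (controls), 11.0 and 21.9 CPM (siFOXA1.1) and 81.2 and 86.2 CPM (siFOXA1.2) in RT112. In SCaBER HJURP read 90.5, 82.6, 87.4 and 99.0 CPM (controls), 31.5 and 22.2 CPM (siFOXA1.1) and 91.4 and 94.5 CPM (siFOXA1.2). The falls were -2.50 ± 0.24 log2 units (edgeR adjusted p = 1.78e-07) in RT112 and -1.74 ± 0.24 log2 units (edgeR adjusted p = 0.000429) in SCaBER, with no overlap with the controls. CENPA, the centromeric histone H3 itself, was scarce: it read 9.13, 6.83, 7.44 and 17.2 CPM (controls), 8.26 and 0.48 CPM (siFOXA1.1) and 12.8 and 7.43 CPM (siFOXA1.2) in RT112. SCaBER values of CENPA were 8.34, 7.13, 4.07 and 8.32 CPM (controls), 3.15 and 4.56 CPM (siFOXA1.1) and 10.8 and 7.95 CPM (siFOXA1.2). The siFOXA1.1 libraries overlapped the controls in both lines and neither change was called (log2 change -1.17 ± 0.70, edgeR adjusted p = 0.228 in RT112 and log2 change -0.83 ± 0.62, edgeR adjusted p = 0.5 in SCaBER). In RT112 the siFOXA1.1 libraries, of similar total counts, disagreed widely, with 54 and 3 counts of CENPA. A fall of CENPA was thus neither shown nor excluded with 2 libraries per siRNA.

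The chromosomal passenger complex corrects wrong attachments and its 3 members of the list changed by -2.63 to -2.56 in RT112. AURKB, its kinase, read 102, 105, 108 and 93.3 CPM in the RT112 controls, 23.7 and 9.12 CPM under siFOXA1.1 and 130.3 and 97.5 CPM under siFOXA1.2. In SCaBER AURKB read 185, 148, 157 and 162 CPM (controls), 100.2 and 45.2 CPM (siFOXA1.1) and 172 and 201 CPM (siFOXA1.2). The siFOXA1.1 libraries were lowest in each line, with a fall of -2.63 ± 0.28 log2 units (edgeR adjusted p = 5.61e-07) in RT112 and of -1.17 ± 0.27 log2 units (edgeR adjusted p = 0.0147) in SCaBER. BIRC5 (survivin), which anchors the complex to chromatin, read 144, 128, 188 and 206 CPM (controls), 30.1 and 23.7 CPM (siFOXA1.1) and 178 and 175 CPM (siFOXA1.2) in RT112. BIRC5 levels in SCaBER were 142, 179, 177 and 181 CPM (controls), 61.9 and 44.3 CPM (siFOXA1.1) and 147 and 121 CPM (siFOXA1.2). It was 6.09-fold lower in RT112 (log2 change -2.61 ± 0.17, edgeR adjusted p = 8.14e-10) and 3.20-fold lower in SCaBER (log2 change -1.68 ± 0.23, edgeR adjusted p = 0.000306). CDCA8 (borealin), another subunit, read 101, 124, 115 and 107 CPM (controls), 25.5 and 12.2 CPM (siFOXA1.1) and 103 and 87.4 CPM (siFOXA1.2) in RT112. For SCaBER the CDCA8 values were 111, 134, 126 and 161 CPM (controls), 51.7 and 34.8 CPM (siFOXA1.1) and 112 and 107 CPM (siFOXA1.2). CDCA8 fell without overlap in both lines (log2 change -2.56 ± 0.25, edgeR adjusted p = 1.7e-07 in RT112 and log2 change -1.62 ± 0.24, edgeR adjusted p = 0.000636 in SCaBER).

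Among the 14 spindle and microtubule genes, all were lower in RT112 and 12 in SCaBER. GTSE1 stood at 73.6, 76.2, 96.3 and 113 CPM in the RT112 controls, at 15.9 and 4.80 CPM under siFOXA1.1 and at 103 and 89.8 CPM under siFOXA1.2. In SCaBER GTSE1 stood at 64.2, 72.9, 98.8 and 81.3 CPM (controls), 23.5 and 11.8 CPM (siFOXA1.1) and 59.5 and 66.0 CPM (siFOXA1.2). It was the most lowered spindle gene in both lines, 8.51-fold in RT112 (log2 change -3.09 ± 0.31, edgeR adjusted p = 3.44e-07) and 4.49-fold in SCaBER (log2 change -2.17 ± 0.30, edgeR adjusted p = 0.000446). HMMR read 98.7, 111, 103 and 128 CPM (controls), 12.5 and 16.6 CPM (siFOXA1.1) and 89.8 and 112 CPM (siFOXA1.2) in RT112. HMMR in SCaBER read 94.4, 113, 82.6 and 90.03 CPM (controls), 25.6 and 24.4 CPM (siFOXA1.1) and 91.7 and 86.1 CPM (siFOXA1.2). Its siFOXA1.1 libraries lay far below all others of each line (log2 change -2.91 ± 0.21, edgeR adjusted p = 4.55e-09 in RT112 and log2 change -1.92 ± 0.23, edgeR adjusted p = 0.000142 in SCaBER). Both promoters, printed above, hold CHR and CCAAT matches.

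AURKA, the kinase of spindle poles, and TPX2, its activator, showed a line difference. AURKA read 293, 347, 299.7 and 265 CPM (controls), 54.7 and 46.1 CPM (siFOXA1.1) and 260.4 and 220.2 CPM (siFOXA1.2) in RT112. In SCaBER AURKA read 209, 195, 213 and 262 CPM (controls), 164 and 91.8 CPM (siFOXA1.1) and 217 and 234 CPM (siFOXA1.2). The fall was 5.96-fold in RT112 (log2 change -2.57 ± 0.15, edgeR adjusted p = 2.32e-10) and 1.71-fold in SCaBER (log2 change -0.78 ± 0.23, edgeR adjusted p = 0.0481). TPX2 read 342, 347, 313 and 347 CPM (controls), 65.0 and 63.01 CPM (siFOXA1.1) and 315 and 326 CPM (siFOXA1.2) in RT112. SCaBER values of TPX2 were 434, 439, 498 and 475 CPM (controls), 261 and 165 CPM (siFOXA1.1) and 406 and 409 CPM (siFOXA1.2). TPX2 fell in both lines without overlap (log2 change -2.40 ± 0.13, edgeR adjusted p = 7.2e-11 in RT112 and log2 change -1.11 ± 0.20, edgeR adjusted p = 0.00241 in SCaBER). KIF11, the motor that pushes spindle poles apart, read 61.7, 75.4, 55.0 and 57.3 CPM (controls), 6.27 and 13.0 CPM (siFOXA1.1) and 70.1 and 73.6 CPM (siFOXA1.2) in RT112. In SCaBER KIF11 read 68.7, 64.8, 63.2 and 59.6 CPM (controls), 43.4 and 19.1 CPM (siFOXA1.1) and 69.3 and 66.3 CPM (siFOXA1.2). It was lower in both (log2 change -2.69 ± 0.28, edgeR adjusted p = 4.18e-07 in RT112 and log2 change -1.04 ± 0.30, edgeR adjusted p = 0.046 in SCaBER), and in SCaBER siFOXA1.1 replicate 2 was far below replicate 1.

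DLGAP5, a microtubule stabiliser, read 51, 43.6, 64.4 and 62.05 CPM (controls), 18.0 and 8.80 CPM (siFOXA1.1) and 51.5 and 51.1 CPM (siFOXA1.2) in RT112. Its values in SCaBER were 72.3, 88.3, 94.0 and 99.2 CPM (controls), 64.9 and 52.7 CPM (siFOXA1.1) and 73.9 and 67.9 CPM (siFOXA1.2). The change was -2.02 ± 0.28 log2 units (edgeR adjusted p = 1.29e-05) in RT112 and -0.58 ± 0.22 log2 units (edgeR adjusted p = 0.131) in SCaBER, where it was not called although both siFOXA1.1 libraries lay below the controls. CKAP5, a microtubule polymerase, fell least of the spindle genes in RT112: it read 69.6, 93.6, 96.6 and 93.9 CPM (controls), 33.9 and 45.6 CPM (siFOXA1.1) and 68.8 and 73.8 CPM (siFOXA1.2) there. CKAP5 in SCaBER read 84.0, 87.5, 74.97 and 78.2 CPM (controls), 42.8 and 34.2 CPM (siFOXA1.1) and 72.5 and 104 CPM (siFOXA1.2). CKAP5 changed by -1.15 ± 0.20 log2 units (edgeR adjusted p = 0.000147) in RT112 and -1.08 ± 0.24 log2 units (edgeR adjusted p = 0.0119) in SCaBER. The remaining spindle genes (KIF2C, NUSAP1, TACC3, CKAP2, CKAP2L, PSRC1 and TUBB4B) changed by -2.50 to -1.30 in RT112 and by -1.67 to -0.76 in SCaBER, and of these TUBB4B, a beta tubulin, was not called in SCaBER (log2 change -0.76 ± 0.26, edgeR adjusted p = 0.0858).

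Of the 5 cytokinesis genes, ANLN (anillin, a scaffold of the contractile ring) read 109, 128, 144 and 132 CPM in the RT112 controls, 45.3 and 32.6 CPM under siFOXA1.1 and 80.9 and 108 CPM under siFOXA1.2. In SCaBER ANLN read 466, 552, 406 and 388 CPM (controls), 228 and 162 CPM (siFOXA1.1) and 354 and 329.9 CPM (siFOXA1.2). It fell in both lines (log2 change -1.71 ± 0.19, edgeR adjusted p = 1.11e-06 in RT112 and log2 change -1.20 ± 0.19, edgeR adjusted p = 0.00104 in SCaBER), and in both lines both siFOXA1.2 libraries were also below the controls. KIF20B, a motor of the midbody, read 224, 211, 227 and 220.3 CPM (controls), 74.8 and 57.3 CPM (siFOXA1.1) and 165 and 177 CPM (siFOXA1.2) in RT112. KIF20B in SCaBER read 209.9, 265, 257 and 233 CPM (controls), 114 and 116 CPM (siFOXA1.1) and 218 and 214 CPM (siFOXA1.2). The falls were -1.74 ± 0.15 log2 units (edgeR adjusted p = 3.91e-08) in RT112 and -1.07 ± 0.19 log2 units (edgeR adjusted p = 0.00224) in SCaBER, without overlap with the controls.

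KIF23, the motor of centralspindlin, read 78.4, 70.7, 121 and 126 CPM (controls), 39.6 and 54.7 CPM (siFOXA1.1) and 97.2 and 117 CPM (siFOXA1.2) in RT112. SCaBER values of KIF23 were 95.2, 106, 127 and 124 CPM (controls), 56.99 and 39.1 CPM (siFOXA1.1) and 108 and 86.7 CPM (siFOXA1.2). In RT112 the siControl.1 libraries of KIF23 were well below those of siControl.2, and the siFOXA1.1 libraries were below both (log2 change -1.03 ± 0.18, edgeR adjusted p = 0.00019), while the change in SCaBER was -1.23 ± 0.23 log2 units (edgeR adjusted p = 0.00375). GAS2L3, a linker of actin and microtubules, read 14.3, 10.6, 12.4 and 10.0 CPM (controls), 10.6 and 3.52 CPM (siFOXA1.1) and 20.01 and 19.9 CPM (siFOXA1.2) in RT112. In SCaBER GAS2L3 read 21.3, 30.6, 20.05 and 19.9 CPM (controls), 17.2 and 6.70 CPM (siFOXA1.1) and 17.6 and 25.5 CPM (siFOXA1.2). The siFOXA1.1 libraries of GAS2L3 were far from each other in both lines and no change was called (log2 change -0.75 ± 0.45, edgeR adjusted p = 0.226 in RT112 and log2 change -0.95 ± 0.42, edgeR adjusted p = 0.208 in SCaBER). ECT2, which activates RhoA at the furrow, was lower in RT112 (log2 change -1.005 ± 0.18, edgeR adjusted p = 0.000212) and not called in SCaBER (log2 change -0.49 ± 0.20, edgeR adjusted p = 0.18).

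Chromosome condensation held MKI67, the most lowered member in SCaBER. MKI67 stood at 368, 325, 423 and 408 CPM in the RT112 controls, at 55.2 and 22.7 CPM under siFOXA1.1 and at 323 and 338 CPM under siFOXA1.2. In SCaBER MKI67 stood at 313, 281, 412 and 387 CPM (controls), 72.0 and 65.7 CPM (siFOXA1.1) and 419.9 and 349 CPM (siFOXA1.2). It was 9.71-fold lower in RT112 (log2 change -3.28 ± 0.23, edgeR adjusted p = 3.27e-09) and 5.00-fold lower in SCaBER (log2 change -2.32 ± 0.19, edgeR adjusted p = 4.71e-06), with siFOXA1.2 within or near the controls. TOP2A, the topoisomerase that untangles sister chromatids, read 1492, 1379, 1632 and 1395 CPM (controls), 280.1 and 150.3 CPM (siFOXA1.1) and 1418 and 1355 CPM (siFOXA1.2) in RT112. TOP2A in SCaBER read 1527, 1090.2, 1609.6 and 1650.2 CPM (controls), 764 and 317 CPM (siFOXA1.1) and 1365 and 1487 CPM (siFOXA1.2). The fall was 6.85-fold in RT112 (log2 change -2.78 ± 0.17, edgeR adjusted p = 5.42e-10) and 2.70-fold in SCaBER (log2 change -1.43 ± 0.27, edgeR adjusted p = 0.00378).

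In RT112 the condensin subunits fell by less than MKI67 and TOP2A. NCAPD2 read 112, 107, 109 and 142 CPM (controls), 33.9 and 31.8 CPM (siFOXA1.1) and 108 and 104 CPM (siFOXA1.2) in RT112. In SCaBER NCAPD2 read 77.3, 106, 102 and 96.6 CPM (controls), 32.5 and 32.9 CPM (siFOXA1.1) and 93.1 and 92.3 CPM (siFOXA1.2). The siFOXA1.1 libraries of NCAPD2 agreed closely in each line (log2 change -1.83 ± 0.18, edgeR adjusted p = 1.78e-07 in RT112 and log2 change -1.54 ± 0.23, edgeR adjusted p = 0.000774 in SCaBER). SMC4, the core ATPase of condensin, read 650.2, 621, 848 and 879.7 CPM (controls), 365 and 298 CPM (siFOXA1.1) and 734 and 805 CPM (siFOXA1.2) in RT112. SCaBER values of SMC4 were 702, 949, 789 and 746 CPM (controls), 299.7 and 410.3 CPM (siFOXA1.1) and 764 and 726 CPM (siFOXA1.2). SMC4 was 2.23-fold lower in RT112 (log2 change -1.16 ± 0.11, edgeR adjusted p = 9.47e-08) and 2.24-fold lower in SCaBER (log2 change -1.16 ± 0.19, edgeR adjusted p = 0.00121), and the difference between the lines had a 95% interval from -0.45 to 0.43. CDCA2, a phosphatase anchor on chromosomes, was lower in RT112 (log2 change -2.49 ± 0.40, edgeR adjusted p = 8.76e-05) and missed the threshold in SCaBER (log2 change -1.24 ± 0.37, edgeR adjusted p = 0.0534).

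Genes of chromatin and the nuclear envelope, which also serve cells outside mitosis, were among those that fell least. HMGB2, a chromatin protein that binds mitotic chromosomes, was the exception: it read 91.0, 74.97, 122 and 117 CPM (controls), 19.1 and 15.0 CPM (siFOXA1.1) and 122 and 118 CPM (siFOXA1.2) in RT112. In SCaBER HMGB2 read 122, 116, 120.4 and 112 CPM (controls), 64.3 and 22.1 CPM (siFOXA1.1) and 112 and 81.5 CPM (siFOXA1.2). Its falls were -2.54 ± 0.19 log2 units (edgeR adjusted p = 8.54e-09) in RT112 and -1.46 ± 0.33 log2 units (edgeR adjusted p = 0.0138) in SCaBER. TMPO, a lamina-associated protein, read 191, 208, 199.6 and 201 CPM (controls), 88.2 and 84.1 CPM (siFOXA1.1) and 186 and 252 CPM (siFOXA1.2) in RT112. For SCaBER the TMPO values were 147, 179, 126 and 136 CPM (controls), 61.3 and 89.1 CPM (siFOXA1.1) and 140.1 and 160.4 CPM (siFOXA1.2). TMPO was lower in both without overlap (log2 change -1.21 ± 0.15, edgeR adjusted p = 3.02e-06 in RT112 and log2 change -0.96 ± 0.22, edgeR adjusted p = 0.0132 in SCaBER). CBX5 (heterochromatin protein HP1 alpha) read 134, 131, 177 and 179 CPM (controls), 93.7 and 99.2 CPM (siFOXA1.1) and 123 and 143 CPM (siFOXA1.2) in RT112. In SCaBER CBX5 read 315, 343, 293 and 313 CPM (controls), 171 and 136 CPM (siFOXA1.1) and 290.0 and 281 CPM (siFOXA1.2). CBX5 changed by -0.67 ± 0.14 log2 units (edgeR adjusted p = 0.00108) in RT112 and by -1.04 ± 0.18 log2 units (edgeR adjusted p = 0.00211) in SCaBER.

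CTCF, the insulator protein, read 126, 106, 137 and 83.3 CPM (controls), 103 and 87.3 CPM (siFOXA1.1) and 116 and 101 CPM (siFOXA1.2) in RT112. CTCF in SCaBER read 147, 131, 157 and 179.6 CPM (controls), 154 and 111 CPM (siFOXA1.1) and 168 and 175 CPM (siFOXA1.2). The groups overlapped in both lines and neither change was called (log2 change -0.25 ± 0.18, edgeR adjusted p = 0.333 in RT112 and log2 change -0.20 ± 0.20, edgeR adjusted p = 0.6253 in SCaBER). ANP32E under siFOXA1.1 read 74.0 and 72.0 CPM in RT112, at the level of siControl.1 and below siControl.2, and its change against both controls was not called (log2 change -0.39 ± 0.16, edgeR adjusted p = 0.0692). In SCaBER ANP32E read 144, 163, 169 and 176 CPM (controls), 114 and 121 CPM (siFOXA1.1) and 177 and 171 CPM (siFOXA1.2), with siFOXA1.1 lowest and the change not called (log2 change -0.47 ± 0.18, edgeR adjusted p = 0.142). LBR, the lamin B receptor, was lower in RT112 (log2 change -0.71 ± 0.16, edgeR adjusted p = 0.00242) and not called in SCaBER (log2 change -0.66 ± 0.23, edgeR adjusted p = 0.107).

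The last group holds PIMREG, a mitotic regulator of the metaphase-to-anaphase transition, JPT1 and RANGAP1. PIMREG read 10.3, 18.4, 15.5 and 21.3 CPM (controls), 4.89 and 2.40 CPM (siFOXA1.1) and 18.6 and 22.4 CPM (siFOXA1.2) in RT112. In SCaBER PIMREG read 12.3, 20.6, 13.9 and 18.0 CPM (controls), 4.34 and 2.71 CPM (siFOXA1.1) and 11.9 and 9.55 CPM (siFOXA1.2). It was among the most lowered members in SCaBER (log2 change -2.21 ± 0.51, edgeR adjusted p = 0.0143) and was also lower in RT112 (log2 change -2.14 ± 0.45, edgeR adjusted p = 0.00119), the difference between the lines having a 95% interval from -1.30 to 1.39. JPT1 read 374, 354, 524 and 491 CPM (controls), 232 and 301 CPM (siFOXA1.1) and 397 and 404 CPM (siFOXA1.2) in RT112. SCaBER values of JPT1 were 369, 330.0, 410.1 and 485 CPM (controls), 447 and 297 CPM (siFOXA1.1) and 388 and 357 CPM (siFOXA1.2). JPT1 was lower in RT112 (log2 change -0.69 ± 0.12, edgeR adjusted p = 0.000139), whereas in SCaBER 1 siFOXA1.1 library lay within the controls and the other below them (log2 change -0.09 ± 0.19, edgeR adjusted p = 0.855). RANGAP1, the activator of the Ran GTPase cycle, read 164, 130.2, 132 and 122 CPM (controls), 106 and 91.6 CPM (siFOXA1.1) and 133 and 122 CPM (siFOXA1.2) in RT112. In SCaBER RANGAP1 read 218, 141, 211 and 219.7 CPM (controls), 174 and 119.9 CPM (siFOXA1.1) and 239.7 and 202 CPM (siFOXA1.2). Its fall was called in RT112 alone (log2 change -0.46 ± 0.15, edgeR adjusted p = 0.0249 against log2 change -0.42 ± 0.22, edgeR adjusted p = 0.289).

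Between the lines, 38 members were lower in both, 11 in RT112 without a call in SCaBER, 1 (CKS2) in SCaBER without a call in RT112, and 4 (CTCF, ANP32E, GAS2L3 and CENPA) were called in neither. Falls of more than 2 log2 units numbered 30 in RT112 and 3 in SCaBER, the latter MKI67, PIMREG and GTSE1. The changes of the 54 members in RT112 and SCaBER had a Pearson r of 0.59 and a Spearman rho of 0.543, across genes that are not independent replicates. The difference itself was tested with all 16 libraries. It was called for 13 members, all with the larger fall in RT112, against 1.55% of the 15464 genes tested, and the median difference was -0.85 on the log2 scale for the members and -0.05 for all genes. CDC25C (log2 difference -2.36 ± 0.61, edgeR adjusted p = 0.0398), BUB1 (log2 difference -2.02 ± 0.39, edgeR adjusted p = 0.00733), CDK1 (log2 difference -1.94 ± 0.35, edgeR adjusted p = 0.00388), NDC80 (log2 difference -1.93 ± 0.38, edgeR adjusted p = 0.00733) and AURKA (log2 difference -1.82 ± 0.28, edgeR adjusted p = 0.000825) differed most. Called differences of KIF11, CENPE, DLGAP5, CDCA3, TOP2A, TPX2, CCNB2 and CENPF ran from -1.66 to -1.12. Mitotic entry held 4 of 8 members with a called difference and kinetochore 3 of 6, with the rest in spindle, checkpoint and condensation. The passenger complex, cytokinesis, chromatin and other genes held none, which does not show an equal response. Within batches 1 and 2 the median line difference was -1.07 and -1.10 for the passenger complex, against -1.12 and -0.58 for mitotic entry. CKS2 differed the other way, by 1.204 ± 0.55 with a 95% interval from 0.05 to 2.36, and was not called (edgeR adjusted p = 0.309). Against siControl.1 alone 6 members were called and against siControl.2 alone 7, while 25 were called without SCaBER siFOXA1.1 replicate 2.

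**Figure D4:**
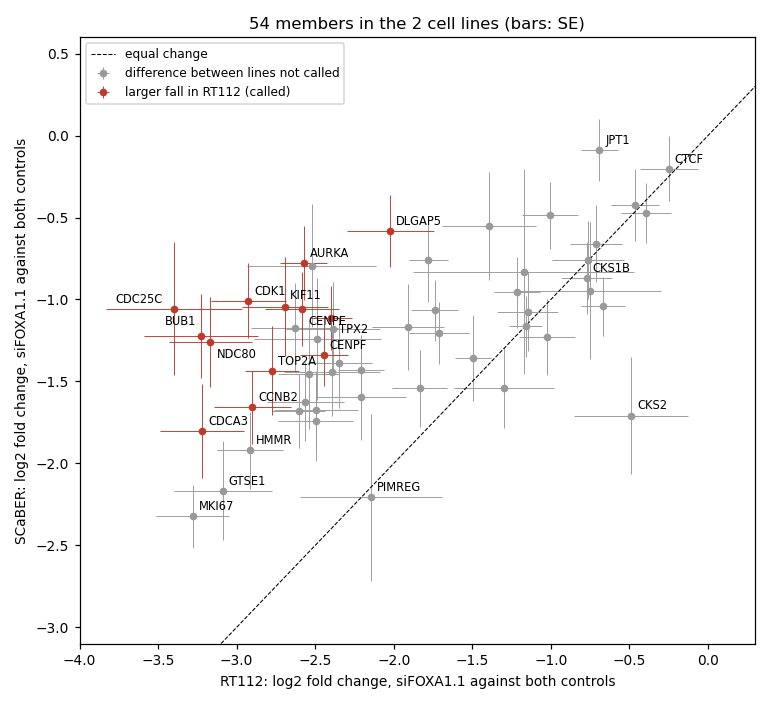
log2 change under siFOXA1.1 against both controls in RT112 (x) and SCaBER (y) for the 54 members, with SE as bars and the line of equal change dashed. The 13 members in red, called for a larger fall in RT112, lie above the dashed line, MKI67 and GTSE1 are low in both lines, and CKS2 lies below the dashed line.

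Under control siRNA 26 of the 54 members differed between the lines, in both directions, a share close to that of all genes (6487 of 14036). In RT112 7 were higher than in SCaBER (22.7% of all genes) and 19 lower (23.5% of all genes), with log2 differences from -2.28 to 2.82. The median difference, RT112 minus SCaBER, was -0.07 on the log2 scale of CPM, where all genes had 0.02, and -0.46 with limma on log2(TPM + 1), where all genes had -0.31. The higher ones were TACC3 (log2 difference 2.82, edgeR adjusted p = 1.3e-09), a spindle protein, and CDK1, CCNB2, UBE2C, NDC80, AURKA and TMPO, between 0.37 and 0.86. The lowest against SCaBER were PSRC1 (-2.28, edgeR adjusted p = 4.64e-08) and ANLN (-1.77, edgeR adjusted p = 1.22e-08). Per gene length, TOP2A was the most abundant member in RT112 with 460.2 ± 54.5 TPM (counts scaled for gene length and library total, mean ± SD, n = 4 control libraries), above TUBB4B with 355 ± 33.6 and UBE2C with 331 ± 58.2. UBE2C and TUBB4B did not differ beyond their spread. In SCaBER TUBB4B led with 1039 ± 181 TPM, before TOP2A with 586 ± 88.1 and CKS1B with 379 ± 37.6. GAS2L3 had the lowest mean in both, with 3.49 ± 0.54 TPM in RT112 and 8.77 ± 2.35 TPM in SCaBER, where it did not differ beyond the spread from CENPA with 9.07 ± 2.65 TPM. A 3′ kit reads transcript ends, so division by gene length understates long genes in these TPM values, and ranks by CPM differ. In the SCaBER controls TOP2A (1090 to 1650 CPM) stood above TUBB4B (634 to 1020 CPM). CENPA (4.07 to 8.34 CPM) stood below GAS2L3 (19.9 to 30.6 CPM) there. In the RT112 controls SMC4 (621 to 880 CPM) and TACC3 (614 to 815 CPM) stood above TUBB4B (357 to 399 CPM) and UBE2C (179 to 236 CPM). Across the members, the change under siFOXA1.1 and the control level, as log2(TPM + 1), had a Pearson r of -0.059 in RT112 and 0.05 in SCaBER (n = 54 genes).

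Other genes of the same processes were also lower under siFOXA1.1, in smaller shares than the members. Their lists were made by function, but with earlier results of these data known. In SCaBER the other mitosis genes had a more negative median than the members. Of 60 other mitosis genes tested, 49 were lower and 1 (BUB3, a checkpoint protein, log2 change 0.43) higher under siFOXA1.1 in RT112, against 15.1% of all genes lower, with a median of -1.74, and 39 were lower and none higher in SCaBER, against 4.07% of all genes lower, with a median of -1.25. BUB3 read 246 and 269 CPM under siFOXA1.1, near its siControl.2 values of 245 and 255 CPM and above its siControl.1 values of 153 and 139 CPM, and the groups overlap. CCNB1, the main mitotic cyclin, changed by -2.18 ± 0.24 and -1.43 ± 0.31 and PLK1, a mitotic kinase, by -2.65 ± 0.35 and -1.71 ± 0.26. Of 42 S phase genes 32 (76.2%) were lower in RT112 (median -1.37) and 22 (52.4%) in SCaBER (median -0.87), and none was higher. S phase genes thus had a less negative median than the G2 and mitosis genes in both lines. Of 17 regulators of this transcription 7 (41.2%) were lower in RT112 and 4 (23.5%) in SCaBER. MYBL2, which encodes B-MYB, changed by -3.44 ± 0.19 in RT112 and -1.69 ± 0.25 in SCaBER, and FOXM1 by -2.54 ± 0.23 and -1.62 ± 0.21. The 1 regulator that rose was CDKN1A, the CDK inhibitor p21, in SCaBER. It read 93.3, 52.2, 72.4 and 88.5 CPM in the SCaBER controls, 373.5 and 311 CPM under siFOXA1.1 and 163 and 155 CPM under siFOXA1.2 (log2 change 2.16 ± 0.22, edgeR adjusted p = 2.5e-05 under siFOXA1.1, and 1.06 ± 0.22, edgeR adjusted p = 0.195 under siFOXA1.2). In RT112 its change was 0.49 ± 0.19 (edgeR adjusted p = 0.0558). No gene of these 3 lists was called under siFOXA1.2 in either line.

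**Figure D5:**
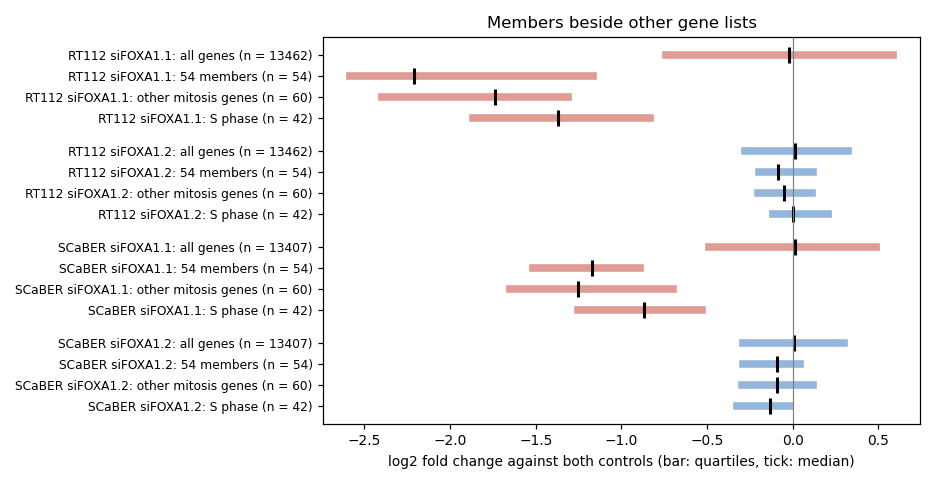
Quartiles (bars) and median (tick) of the log2 change against both controls for all genes tested, the 54 members, other mitosis genes and S phase genes, by line and siRNA. Under siFOXA1.1 the medians are -2.21, -1.74 and -1.37 in RT112 and -1.17, -1.25 and -0.87 in SCaBER, and under siFOXA1.2 all lie near 0.

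Members with and without the promoter letters were set side by side. Among the 45 members with a promoter entry, the 33 with TTTGAA had a median log2 change of -2.21 in RT112 and -1.23 in SCaBER, and the 12 without it of -1.45 and -1.11. For CCAAT the medians were -2.28 and -1.23 with a match (32 members) and -1.50 and -1.16 without (13 members). These are descriptions without a test. The members lay on 20 chromosomes, 10 of them on chromosome 1 and 5 each on 12 and 17.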

How the data were processed

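Total RNA of 16 libraries was read with a 3′ mRNA kit (QuantSeq). Per the labels and the deposited pipeline settings, the authors trimmed reads with TrimGalore 0.6.2 (minimum quality 20, minimum length 10) and aligned and counted them per gene with STAR 2.6.1a on hg38 with GENCODE 29. The study's methods name STAR with hg19 instead, and only gene names and identifiers were used here. The authors deposited raw counts, on which all tests were run, and TPM, used here only to compare levels between genes and as an alternative scale.

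Counts were filtered by filterByExpr on siRNA groups, scaled by TMM and tested with the quasi-likelihood test of edgeR 4.0.16 in R 4.3.3, with Benjamini-Hochberg adjustment over all genes tested and a threshold of 0.05. CPM are TMM-normalised within each line. The SE was derived from the log2 change and its F value, and 95% intervals use the t quantile. Alternatives were DESeq2 1.42.0, limma 3.58.1 on log2(TPM + 1), other scalings, no filter, each control alone, each library left out and the batch as replicate block. The labels state that a replicate number marks an experiment batch, which pairs the libraries. Deviations of libraries with the same number correlated with r between -0.0124 and 0.0156 in RT112 and between 0.0148 and 0.211 in SCaBER (6 pairs each). The fitting code was tested on simulated data.

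Values in every library are given for the 2 members of each function with the most negative change under siFOXA1.1 in each line, the member of each function nearest to no change in RT112, and members called between controls or between the lines; other members are named with their test. The members and lists were chosen with earlier results of these data known. Promoter windows came from RefSeq (GRCh38.p14) and were matched by symbol.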

Additional observations from a re-analysis of the deposited data

Results flagged for a closer look

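For each member the 4 control libraries of a line, which hold both control siRNAs, were taken as a group, and in 7 of these 108 groups 1 library stood apart from the other 3 by Dixon's criterion, where chance alone gives about 1 in 20. In RT112 these were TPX2 in siControl.2 replicate 1 (313 CPM, the lowest control), CKAP5 in siControl.1 replicate 1 (69.6 CPM, the lowest) and NCAPD2 in siControl.2 replicate 2 (142 CPM, the highest). In SCaBER they were BIRC5 in siControl.1 replicate 1 (142 CPM, the lowest) and, in siControl.1 replicate 2, CKS2 (64.3 CPM, the highest), GAS2L3 (30.6 CPM, the highest) and RANGAP1 (141 CPM, the lowest).

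The change under siFOXA1.1 differed between RT112 and SCaBER for 13 members by the edgeR test of the difference. The log2 differences, RT112 minus SCaBER, were -2.36 for CDC25C, -2.02 for BUB1, -1.94 for CDK1, -1.93 for NDC80 and -1.82 for AURKA. They were -1.66 for KIF11, -1.55 for CENPE, -1.46 for DLGAP5, -1.43 for CDCA3, -1.36 for TOP2A, -1.30 for TPX2, -1.26 for CCNB2 and -1.12 for CENPF.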

How the results depend on the processing

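The counts of members lower under siFOXA1.1 were 49 in RT112 (48 to 51 leaving out each library, 48 to 50 in the other settings) and 39 in SCaBER (32 to 44 and 35 to 43). Between the siFOXA1 siRNAs 45 to 50 members were called in RT112 over all settings (main 48), and in SCaBER 30 became 14 with limma on TPM and 13 to 39 leaving out each library. Between the controls in RT112, 1 became 2 with DESeq2 size factors, 4 with library totals, 4 without a filter, 4 with DESeq2, 0 with limma and 4 with the replicate block, and 0 to 5 leaving out each library. The line difference was called for 13 members, for 6 against siControl.1 alone, 7 against siControl.2 alone and 10 to 25 leaving out each library. The pooled comparison in SCaBER gave 0, and 5 without a filter. For siFOXA1.2 in RT112 the range leaving out each library was 0 to 1. With the replicate block, which pairs libraries by batch, the counts were 49 and 43 under siFOXA1.1, 48 and 36 between the siFOXA1 siRNAs and 18 for the line difference. The block moved only the count between the RT112 controls, from 1 to 4, by over 1.5 times. Without siFOXA1.1 replicate 1 or 2 of the line, the log2 change ranged from -1.71 to 0.15 for CKS2 in RT112, from -0.45 to 0.016 for CTCF in SCaBER and from -0.41 to 0.18 for JPT1 in SCaBER, the positive values without replicate 2. JPT1 in SCaBER was at 0.091 against siControl.1 alone, and CDK1 between the lines under control siRNA at -0.0335 with limma. The cause was not tested. With limma on TPM the median of all genes under siFOXA1.1 in RT112 moved to -0.27 and with library totals to -0.14, with 22.6% and 37.8% of called genes higher against 48%, and the members' median lay 2 units or more below it in each scaling.

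Each siRNA had 2 libraries per line, and genes near 10 CPM such as CENPA and PIMREG have wide intervals. FOXA1 is too scarce in SCaBER for its knock-down to be measured. Fewer cells in G2 and M and less RNA per cell cannot be told apart, nor can line and medium.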
